A study of Caenorhabditis elegans with 2 samples.

Results

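The genes described here are 10 genes of seam cell fate and cell fusion in Caenorhabditis elegans, among 19973 protein-coding genes on the 6 nuclear chromosomes. They are ceh-16, eff-1, aff-1, rnt-1, bro-1, lin-22, lin-26, nhr-73, nhr-74 and tlp-1, and they are listed by name, with earlier results of these data known when the list was made. Each gene was taken from its annotated start to its annotated end, with 5 kb added at either end, and every interval with its summit in that window was collected. The data are chromatin immunoprecipitation followed by sequencing (ChIP-seq) of CEH-16, an engrailed-class homeodomain transcription factor, carried as a fusion with the green fluorescent protein eGFP. There was 1 group of 2 biological replicates, each from whole L2 larvae of mixed sex. The strain was OP82, with the genotype unc-119(tm4063) III and the transgene wgIs82. Since an inserted transgene carries the tagged gene, OP82 holds ceh-16 sequence at its own locus and in the insertion, and reads from these copies cannot be told apart. Seam cells are few among the cells of a larva, so a whole-larva value is an average over many cell types.

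Seam cells are lateral epidermal cells that divide like stem cells in each larval stage. At most of these divisions the posterior daughter stays a seam cell, while the anterior daughter fuses with hyp7, the large epidermal syncytium. Fusion is carried out by membrane proteins called fusogens. CEH-16 is known for keeping embryonic seam cells from fusing and acts upstream of the fusogen gene eff-1. Runx and CBFβ proteins, GATA factors and Wnt signalling also set the number and fate of seam cells.

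The values come from 4 lists of intervals on the ce11 build, which is WBcel235. The optimal list held 1358 peaks that passed the irreproducible discovery rate (IDR), a comparison of peak ranks between lists. The relaxed lists, made as input for IDR, held 30000 intervals for the pooled data, 28214 for replicate 1 and 30000 for replicate 2, so a place in one of them is weak evidence of a peak. Signal is the enrichment value of the authors' peak caller, on its own scale in each list. It ran from 23.2 to 190 in the optimal IDR list with a median of 33.5, and the medians of the relaxed lists were 6.05 (pooled), 3.79 (replicate 1) and 3.50 (replicate 2). No file gave counts, so the read depth behind a signal is unknown.

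Optimal IDR peaks lay near tlp-1 and lin-22 and near none of the other 8 genes. tlp-1 had 2 and lin-22 had 1, with signals between 57.5 and 108. The 2 genes of 10 are 20%, with a 95% Wilson interval of 5.67 to 51.0%, and 14.4% of all protein-coding genes had an optimal IDR summit in the same kind of window. The member count is therefore close to the background. Within 1 kb of the gene the count was 1 of 10 (tlp-1), against 6.44% of all genes. The relaxed lists placed intervals near most members: 57 pooled intervals at 9 genes, 64 of replicate 1 at 9 genes and 61 of replicate 2 at all 10. Of the 57 pooled intervals, 24 were upstream, 17 inside the gene and 16 downstream, and their median signal was 8.80. For 26 of them the nearest 5′ end of a protein-coding transcript belonged to another gene. Wilson intervals on shares cover counting error only.

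**Figure D1:**
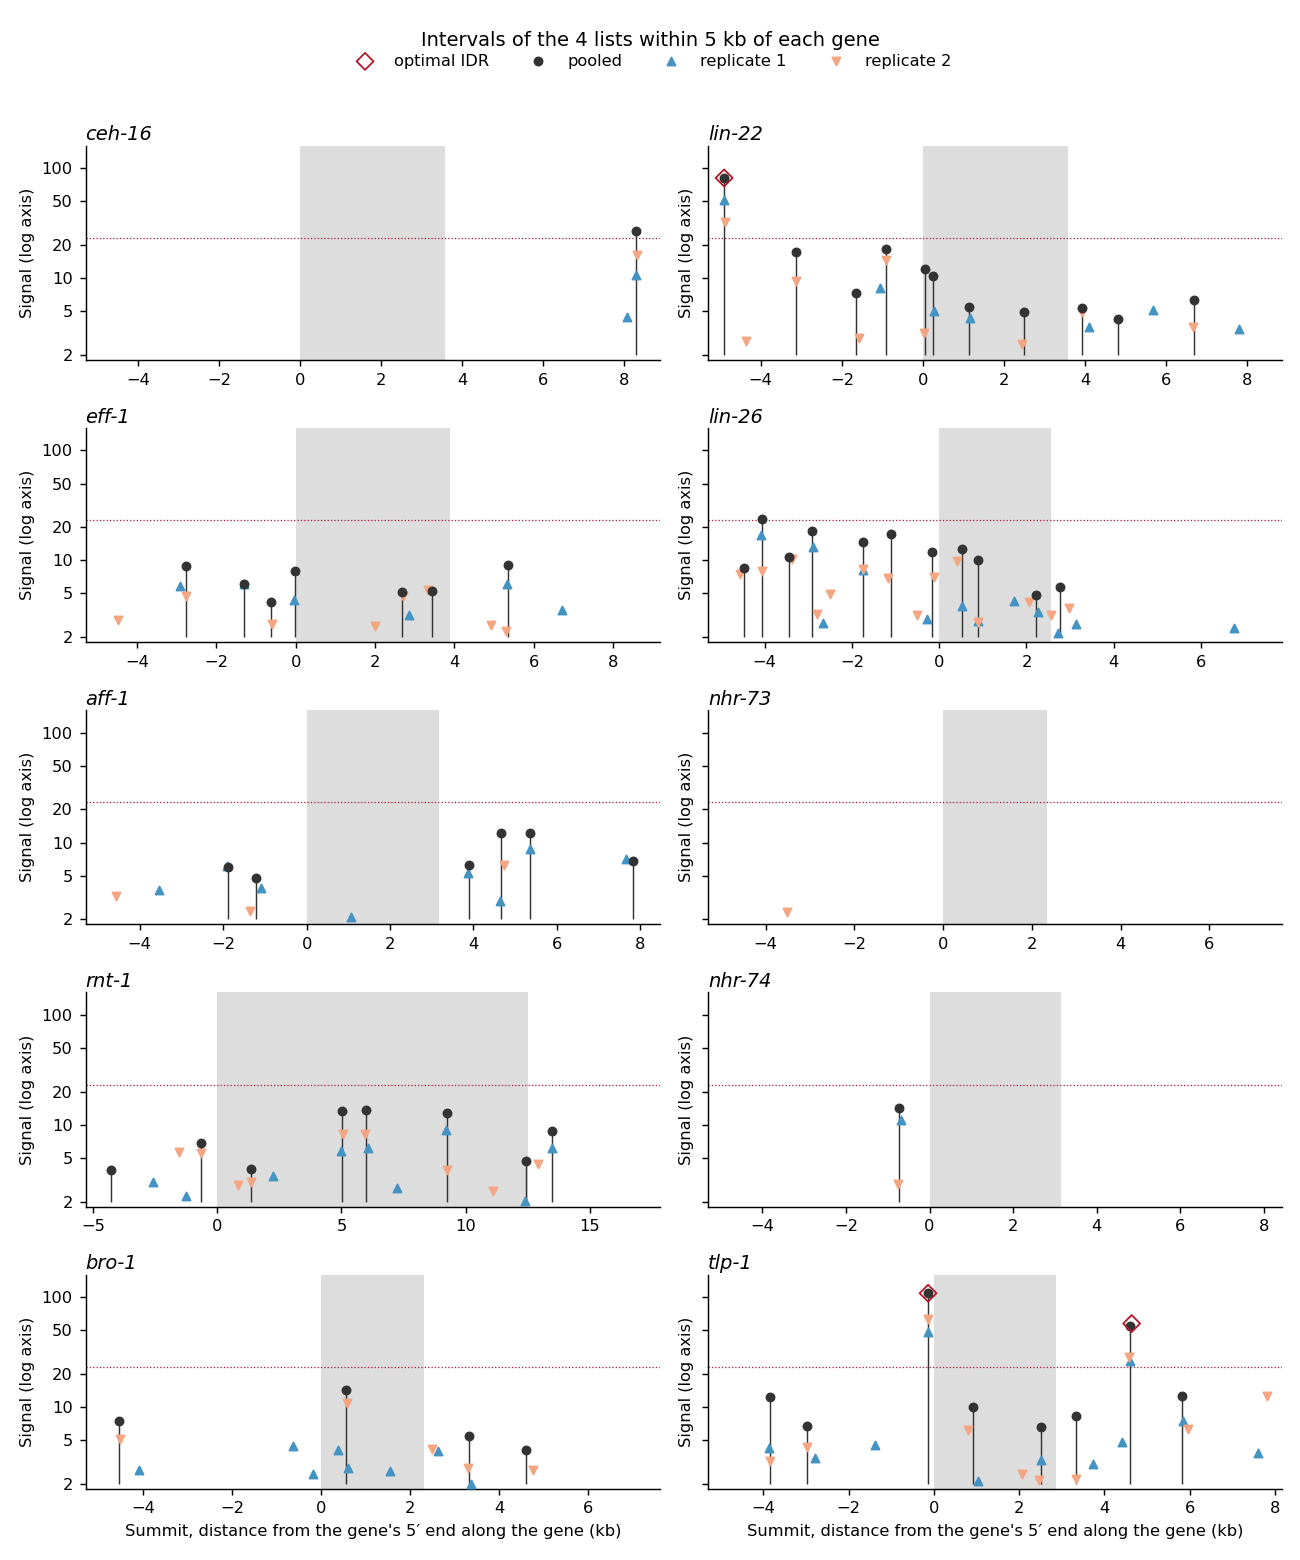
Each panel shows 1 gene (grey) with the summits of all intervals within 5 kb of it, by distance from the gene's 5′ end in kb and signal on a log axis. Diamonds mark the 3 optimal IDR peaks, circles with stems the pooled intervals, triangles the replicate lists and the dotted line the lowest optimal IDR signal (23.2); only tlp-1 and lin-22 have diamonds, and the gene bodies of ceh-16, nhr-73 and nhr-74 hold no symbol.

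tlp-1 encodes a zinc finger protein that acts in asymmetric divisions of the T lineage, at the posterior end of the seam, and in shaping the male tail tip. The gene (WBGene00006580) spans IV:13701208-13704082 on the minus strand. Its promoter peak, IV:13704135-13704246, had a signal of 108, the 19th highest of 1358. The summit was in intergenic sequence, 137 bp upstream of the annotated 5′ end, and that end was the nearest one to it. The overlapping interval had a signal of 47.8 in replicate 1 and 62.6 in replicate 2, with ranks of 57 and 10 in these lists, and the summits of the 2 replicates were 1 bp apart. A second optimal IDR peak, IV:13699404-13699482, lay past the other end of the gene. Its signal was 57.5 (rank 183), with 26.4 in replicate 1 and 28.6 in replicate 2, again close to each other. The summit was intergenic, 1764 bp past the 3′ end of tlp-1, and nearer to the 5′ end of T23G4.127, at 741 bp. Of the 8 pooled intervals only 2 were inside the gene, and the higher of these had a signal of 10.1, in an intron 906 bp from the 5′ end. tlp-1 had the highest signal of the 10 genes in the pooled list and in replicate 2, and 99.7% of all genes had a lower highest pooled signal.

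lin-22 encodes a bHLH repressor of the Hairy and Enhancer of split class, which keeps anterior seam cells from producing neuroblasts. The gene (WBGene00003008) spans IV:3019738-3023304 on the plus strand. Its optimal IDR peak, IV:3014772-3014878, had a signal of 81.6 (rank 58), with 51.0 in replicate 1 and 32.3 in replicate 2. The summit was 4902 bp upstream of the 5′ end, just within the 5 kb limit, in an exon of the noncoding RNA gene Y54G2A.67. The nearest protein-coding 5′ end was that of vrp-1, at 2228 bp, so the peak belongs to lin-22 by the window and not by nearest gene. Closer to lin-22 the pooled list held weaker intervals. One of signal 18.5 was intergenic at 912 bp upstream, with 8.05 in replicate 1 and 14.7 in replicate 2. Another, of signal 17.2 at 3132 bp upstream, overlapped an interval of 9.33 in replicate 2 and none in replicate 1. Intervals of 12 and 10.5 lay 47 and 249 bp into the gene, over coding exons, and overlapped the same replicate intervals of 5.06 and 3.16. None of these 4 was in the optimal IDR list.

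lin-26 encodes a zinc finger protein required for epidermal and other epithelial-like cells to keep their fate. The gene (WBGene00003012, II:7682198-7684764, plus strand) had no optimal IDR peak in its window, but had 11 pooled intervals, 12 in replicate 1 and 14 in replicate 2, the most of the 10 genes in each replicate. Of the pooled intervals, 7 lay upstream, each within the neighbouring gene lir-1, and 8 of the 11 had a signal of 10 or more. The highest, II:7677989-7678284, was in an intron of lir-1, 4061 bp upstream of lin-26. Its pooled signal of 23.7 (rank 1482 of 30000) was above the lowest optimal IDR signal, and it had 16.8 in replicate 1 and 8.03 in replicate 2. The next, of 18.5 at 2907 bp upstream, had 13.1 in replicate 1 and 3.25 in replicate 2. The interval of 17.5 at 1115 bp upstream had 6.87 in replicate 2 and none in replicate 1, and its summit was 32 bp from a 5′ end of lir-1. One of 14.8 at 1750 bp upstream was nearly equal in the replicates, at 8.10 and 8.29. The nearest optimal IDR summit was 5446 bp upstream, just outside the window and also in an intron of lir-1, with a signal of 24.0.

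The sequences within 100 bp of the summits of these peaks are shown because they hold the 3 optimal IDR peaks near the 10 genes and the 2 pooled intervals of highest signal near lin-26. All are 201 bases of the plus strand of the RefSeq assembly of WBcel235, 5′ to 3′, and no summit among them lies in an exon of a protein-coding gene. Capitals mark matches, on either strand, to a motif. The homeodomain core is TAATTA, with TAATTG also counted, as was its complement CAATTA. The GATA motif is GATAAG, the E-box is CACGTG, and the purine repeat is GAGAGA. The last 3 motifs were chosen after earlier results of these data were known.
tlp-1 upstream, chrIV:13704119-13704319: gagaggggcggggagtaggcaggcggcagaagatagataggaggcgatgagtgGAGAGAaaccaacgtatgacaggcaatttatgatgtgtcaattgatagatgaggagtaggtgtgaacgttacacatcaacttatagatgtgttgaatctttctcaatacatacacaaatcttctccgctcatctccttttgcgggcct
tlp-1 downstream, chrIV:13699344-13699544: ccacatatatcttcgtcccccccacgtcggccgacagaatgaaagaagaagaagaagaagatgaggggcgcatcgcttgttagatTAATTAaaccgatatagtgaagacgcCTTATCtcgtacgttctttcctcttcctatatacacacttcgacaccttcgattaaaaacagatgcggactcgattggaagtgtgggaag
lin-22 upstream, chrIV:3014736-3014936: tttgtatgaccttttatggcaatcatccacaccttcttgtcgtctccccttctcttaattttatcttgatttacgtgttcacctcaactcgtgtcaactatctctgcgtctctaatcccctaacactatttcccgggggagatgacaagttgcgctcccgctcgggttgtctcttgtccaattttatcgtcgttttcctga
lin-26 upstream, 4061 bp, chrII:7678037-7678237: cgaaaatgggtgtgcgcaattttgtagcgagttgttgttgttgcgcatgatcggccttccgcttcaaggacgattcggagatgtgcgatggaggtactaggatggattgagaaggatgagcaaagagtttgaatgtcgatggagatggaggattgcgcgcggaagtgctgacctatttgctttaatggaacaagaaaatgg
lin-26 upstream, 2907 bp, chrII:7679191-7679391: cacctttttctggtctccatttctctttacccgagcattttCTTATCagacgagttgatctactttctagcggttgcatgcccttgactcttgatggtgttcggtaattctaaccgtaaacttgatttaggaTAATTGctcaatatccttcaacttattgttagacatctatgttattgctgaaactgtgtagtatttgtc

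The homeodomain core was in 1 of the 3 optimal IDR windows, the one downstream of tlp-1, where TAATTA started at -15 from the summit and a GATAAG match, read as CTTATC, at 11. Over all 1358 optimal IDR windows the core was in 15.4%, and in 21.2% of the windows of pooled intervals outside the optimal list. Among the 57 pooled windows of the 10 genes it was in 9 (15.8%). The window upstream of tlp-1 held GAGAGA at -47 and no core. GAGAGA was in 40.8% of the optimal IDR windows and 16.7% of the other pooled windows. The lin-22 window held none of the motifs searched, although the shorter ATTA, searched on both strands, occurred 2 times in it. At least 1 ATTA was in 65.2% of optimal IDR windows and 80.3% of the other pooled windows. The lin-26 window at 2907 bp held a CTTATC at -59 and a TAATTG at 32, and the stronger one at 4061 bp held neither. GATAAG was in 12% and CACGTG in 5.96% of optimal IDR windows, and in 8.19% and 4.13% of the others. Optimal IDR windows had a median GC content of 44.8% against 37.8% in the other pooled windows. The homeodomain core and its shorter form were less frequent in the optimal IDR windows. The GATA motif, the E-box and the purine repeat were more frequent there. The part of base composition in these shares was not tested. These matches describe letters in a window and not bound sites.

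ceh-16, the gene of the tagged factor, had no interval within its body in any of the 4 lists. The same held for nhr-73 and nhr-74. The share of all genes without one was not counted, so an empty gene body is not shown to be unusual. The gene (WBGene00000439) spans III:8622735-8626314 on the plus strand. The nearest optimal IDR summit was 45.0 kb upstream, with a signal of 43.7. The window held 1 pooled interval, III:8630879-8631174, of signal 26.8 (rank 1203), with 10.6 in replicate 1 and 16.3 in replicate 2. It lay 4713 bp past the 3′ end of ceh-16 and 138 bp from a 5′ end of dnj-10, a gene for a DnaJ-class chaperone. Although its pooled signal was above 23.2, it was not in the optimal list, and in this it was 1 of 214 such intervals among the 1543 pooled intervals at or above 23.2.

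The gene lay in a long stretch without intervals. In the pooled list the stretch was III:8600941-8630878, or 29.9 kb, with ceh-16 and 7 other protein-coding genes whole inside it: gpr-1, C06E1.1, C06E1.9, rha-2, C06E1.11, C13G5.2 and polk-1. It was the 70th longest of 28917 such stretches, whose median length was 1.66 kb, so it was 18 times the median. A stretch picked for holding the whole of ceh-16, a gene of 3580 bp, had to be longer than that median. Replicate 1 had a stretch of 31.2 kb there (38th of 26697) and replicate 2 one of 30.1 kb (40th of 29323), with nearly the same ends. The flanks were not empty: the 100 kb on its left held 45 pooled intervals and the 100 kb on its right 46. Of the 31-base sequences in the stretch 96.6% occurred once in the genome, against 91.3% over all 6 chromosomes. The share was 100% in ceh-16 itself and 92.8% in its window, and 33.1% of all genes had a less unique window. The part of uniqueness in the stretch was not tested. What the insertion adds to reads from this locus was not tested, since no source used here gives the extent or copy number of wgIs82.

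**Figure D2:**
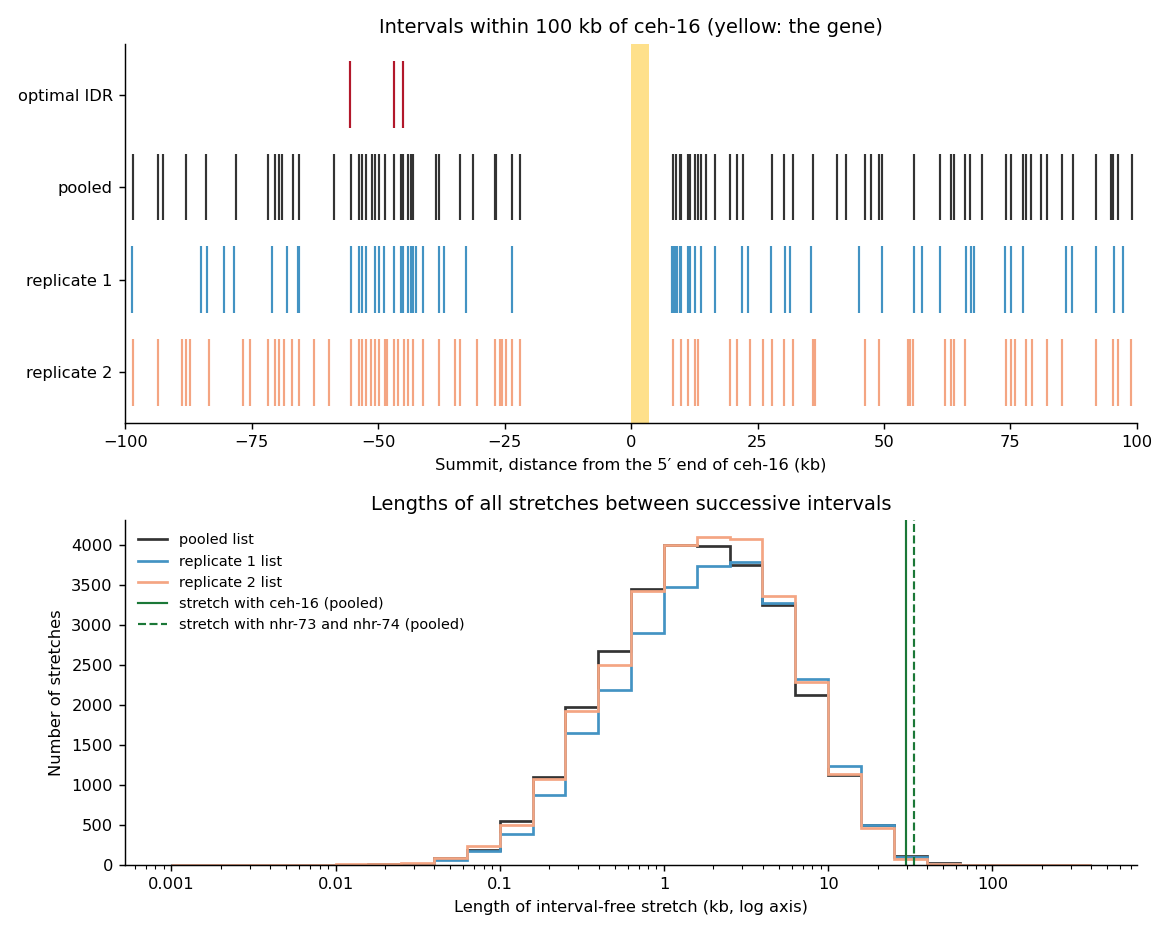
The upper panel shows the summits of the 4 lists within 100 kb of the 5′ end of ceh-16 (yellow, the gene), 1 tick a summit. The lower panel gives the lengths of all stretches between successive intervals in the 3 relaxed lists on a log axis in kb, with green lines at the 29.9 kb stretch of ceh-16 and the 33.3 kb stretch of nhr-73 and nhr-74, both in the right tail.

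The fusogen genes had weak intervals. eff-1 encodes the fusogen that joins most epidermal cells, among them anterior seam daughters, to the syncytium. The gene (WBGene00001159, II:8346684-8350563, plus strand) had 7 pooled intervals, 6 in replicate 1 and 8 in replicate 2, and no optimal IDR peak. Its highest pooled signal, 9.15, lay 1477 bp past the 3′ end in a coding exon of C26D10.6, with 6.06 in replicate 1 and 2.30 in replicate 2. At the 5′ end itself, 25 bp upstream, the pooled signal was 8.04, and an interval of 4.39 was listed in replicate 1 and none in replicate 2. The interval 2771 bp upstream, of signal 8.82, was in both replicates, at 5.85 and 4.71. The highest pooled signal of eff-1 was above that of 51.0% of all genes, so it lay near the genome's median. The nearest optimal IDR summit was 7680 bp upstream, with a signal of 31.8.

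aff-1 encodes the fusogen of the anchor cell and of the seam cells at their final fusion. The gene (WBGene00016625, II:6860582-6863752, minus strand) had 6 pooled intervals, none inside it, and the nearest optimal IDR summits were 25.1 kb from its 5′ end on the upstream side and 22 kb past its 3′ end. Its highest pooled signals, 12.2 and 12.1, were downstream, at 1482 and 2188 bp past the 3′ end. The first had 2.95 in replicate 1 and 6.24 in replicate 2. The second, 93 bp from a 5′ end of the DnaJ-domain gene dnj-5, had 8.82 in replicate 1 and none in replicate 2. Upstream of aff-1 the pooled signals were 4.76 at 1225 bp and 6.02 at 1888 bp, both near or below the list's median of 6.05. The lists differed in number here, with 8 intervals in replicate 1 and 3 in replicate 2.

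The Runx pair had moderate intervals in introns. rnt-1 encodes the Runx factor that promotes seam cell divisions, and bro-1 encodes its CBFβ partner. rnt-1 (WBGene00004393, I:5776093-5788611, plus strand) is the longest of the 10 genes at 12519 bp and had 8 pooled intervals, 5 of them inside it. Those with the highest signals were in introns, 13.4 at 5041 bp, 13.7 at 5997 bp and 12.9 at 9257 bp from the first 5′ end. Each was in both replicates: the first had 5.74 in replicate 1 and 8.19 in replicate 2, the second 6.12 and 8.20, and the third 8.97 and 3.91 in the same order. The replicates thus ranked the third differently. bro-1 (WBGene00000272, I:5186926-5189240, plus strand) had 4 pooled intervals. The highest, 14.4, was in an intron 560 bp from the 5′ end, with 4.03 in replicate 1 (rank 12881) and 10.9 in replicate 2 (rank 1913). Neither gene had an optimal IDR peak, and the nearest summits were 31.4 kb from the 5′ end of rnt-1 and 16.9 kb from that of bro-1.

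nhr-73 and nhr-74 encode nuclear hormone receptors, a class of ligand-regulated transcription factors that is large in the worm. They are neighbours, 1514 bp apart, and their windows overlap. nhr-73 (WBGene00003663, I:11433671-11436018, minus strand) was the only member with no pooled interval, which held for 7.80% of all genes. It also had none in replicate 1, and in replicate 2 it had 1 of signal 2.31 at 3520 bp upstream, in a coding exon of C27C7.1. nhr-74 (WBGene00003664, I:11429014-11432156, plus strand) had 1 pooled interval, I:11428127-11428422, of signal 14.1 at 739 bp upstream. It had 11.1 in replicate 1 and 2.88 in replicate 2. Both genes lay in an interval-free stretch of 33.3 kb in the pooled list, 30.9 kb in replicate 1 and 11 kb in replicate 2.

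Sequence around these receptor genes was much repeated. Of the 31-base sequences in the window of nhr-73 39.5% occurred once in the genome, and 51.5% in that of nhr-74, against 92.3 to 100% in the windows of the other 8 genes. Within nhr-73 itself the share was 12.5%. Reads from such sequence may map to several places, and how the authors' aligner treated them is not given in the sources used here. Only 1.23% of all genes had a less unique window than nhr-73. Among the 364 genes with windows no more unique than that of nhr-74, 62.1% had no pooled interval, against 6.79% of the other 19609. This limit was set by a member, and nhr-74 itself had a pooled interval. The part of uniqueness in the absence of pooled intervals at nhr-73 was not tested.

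Set side by side, the highest pooled signals of the members ran in the order tlp-1 (110), lin-22 (81.8), ceh-16 (26.8), lin-26 (23.7), bro-1 (14.4), nhr-74 (14.1), rnt-1 (13.7), aff-1 (12.2) and eff-1 (9.15), with none at nhr-73. The 5 genes from bro-1 to eff-1 lay within the quartiles of all genes, 6.04 to 16.9. The order within that range was not the same in the replicates: nhr-74 was the highest of these 5 in replicate 1 (11.1) and the lowest in replicate 2 (2.88), and bro-1 was the lowest in replicate 1 (4.37) and the highest in replicate 2 (10.9). tlp-1 and lin-22 led in both replicates, with lin-22 first in replicate 1 and tlp-1 first in replicate 2. The median over the 10 genes was 14.2, against 8.98 over all protein-coding genes, with genes without an interval set to 0. In replicate 1 the medians were 9.79 and 5.84, and in replicate 2 they were 9.22 and 5.35. The members' windows were slightly longer, with a median of 13157 bp against 12027 bp. A pooled interval at or above 23.2 was near 4 of the 10 genes (ceh-16, lin-22, lin-26 and tlp-1), or 40.0% with a Wilson interval of 16.8 to 68.7%, against 16.7% of all genes. This limit is the lowest signal of the optimal IDR list, whose scale is not that of the pooled list. The peak downstream of tlp-1 had 57.5 in the former and 54.4 in the latter, and lin-26 passed the limit narrowly.

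**Figure D3:**
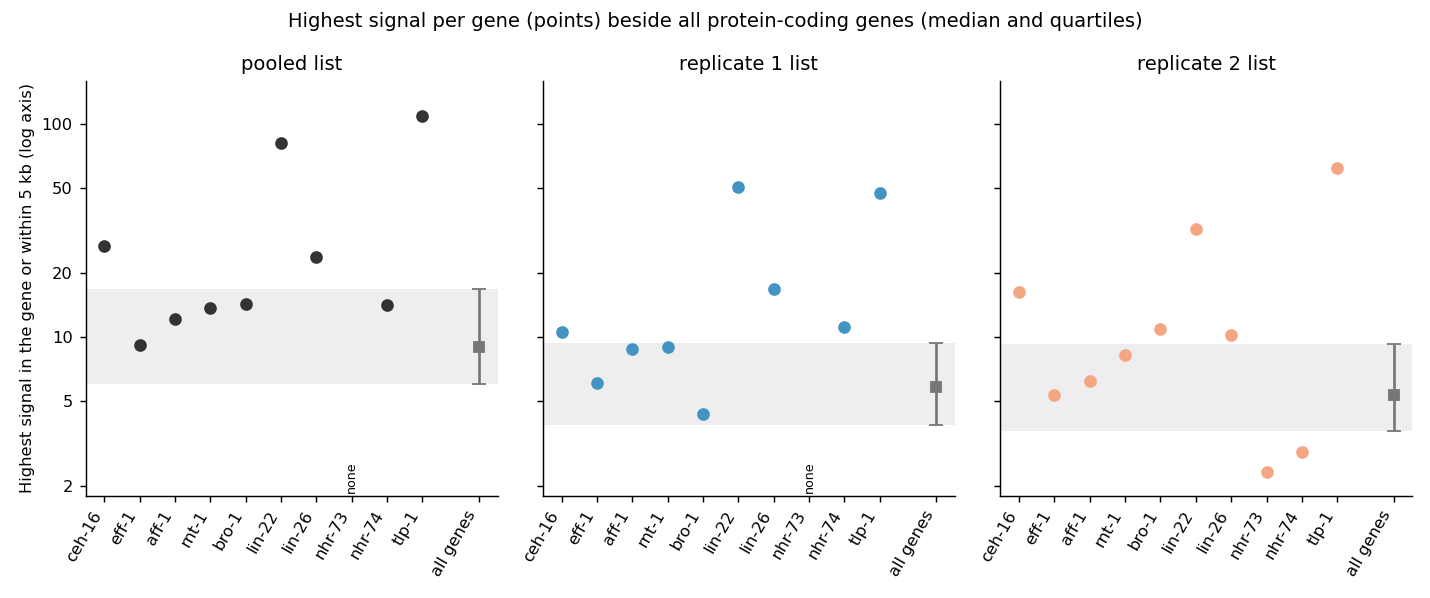
Points give the highest signal (log axis) in each gene or within 5 kb of it in the pooled, replicate 1 and replicate 2 lists. The grey square with bars and the shaded band give the median and quartiles over all protein-coding genes, and "none" marks a gene with no interval; tlp-1, lin-22, ceh-16 and lin-26 lie above the band in all 3 lists, and eff-1, aff-1 and rnt-1 lie inside it in all 3.

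Intervals of the replicates overlapped at a higher share near the 10 genes than over the whole lists, and signals near these genes were also higher than over all genes, a difference whose part in the overlap was not tested. Of the 64 replicate 1 intervals in the windows, 38 (59.4%, Wilson interval 47.1 to 70.5%) overlapped a replicate 2 interval by at least 1 bp, against 33.1% of the whole list. Of the 61 replicate 2 intervals, 36 (59.0%) overlapped one of replicate 1, against 30.5%. The intervals cluster in the windows, with 12 of the 64 at lin-26 and 11 at tlp-1, which the Wilson interval does not take into account. The whole lists are not limited to windows of genes. Of the 57 pooled intervals, 32 overlapped an interval of both replicates, 9 of replicate 1 alone, 14 of replicate 2 alone and 2 of neither. The ratio of the replicate 2 to the replicate 1 signal was 0.634 at the lin-22 peak, 1.31 at the tlp-1 promoter and 1.08 at the peak downstream of tlp-1. Over the 1337 optimal IDR peaks with both values, these 3 included, its median was 0.940, with quartiles of 0.625 and 1.43. The 3 peaks were within these quartiles, lin-22 only just. The ratio was 2.70 at the bro-1 intron, 0.477 and 0.247 at the 2 strongest lin-26 intervals and 0.259 at nhr-74, all outside these quartiles. Some other intervals lay inside them, such as 1.02 at another lin-26 interval and 1.34 at an rnt-1 intron. Others lay outside, such as 0.436 at another rnt-1 intron and 2.11 at aff-1. None of these intervals was in the optimal IDR list, which is selected by comparing ranks, so the quartiles come from an unlike set. With 2 replicates in 1 group, no test of these differences is possible, and the values describe these libraries.

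**Figure D4:**
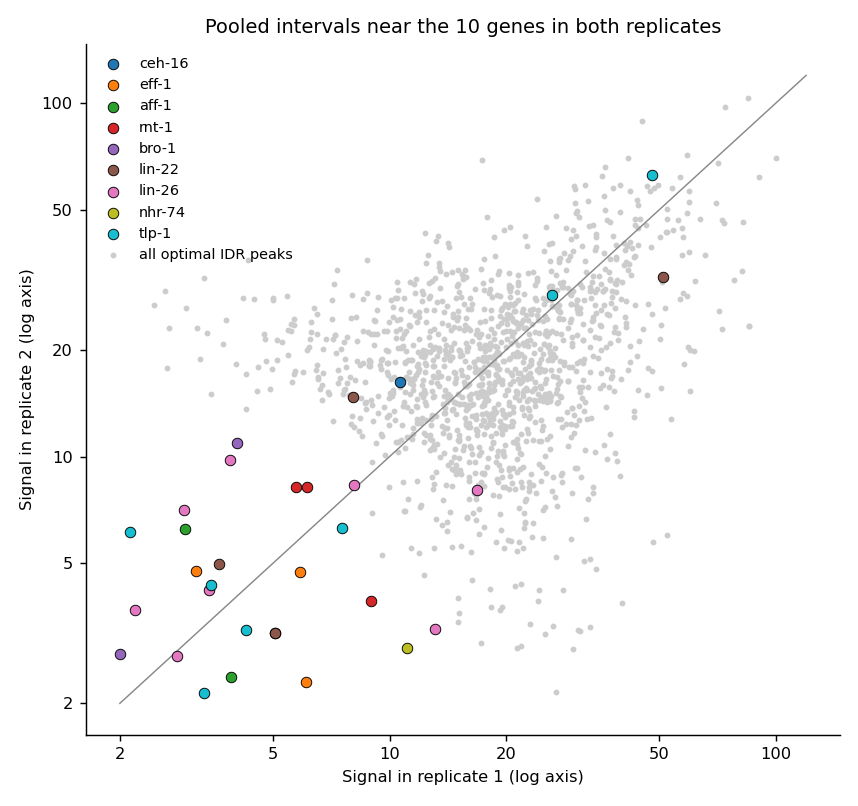
Each coloured point is a pooled interval near 1 of the 10 genes that overlaps an interval of both replicates, by its signal in replicate 1 and in replicate 2 (log axes), with the line of equal signal. Grey points are the 1337 optimal IDR peaks with both values; the 2 tlp-1 peaks and the lin-22 peak lie among them at high signal, and most other coloured points lie below 10 in both replicates.

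Other genes of the same biology, listed with earlier results of these data known, had optimal IDR peaks at a higher share than the 10. The Wilson intervals of the shares overlap and do not cover that choice of genes. From a list of 35 further genes of seam fate, division, epidermal differentiation and fusion, 18 (51.4%, Wilson interval 35.6 to 67%) had an optimal IDR summit in the gene or within 5 kb, against 14.4% of all genes. The 15 transcription factor genes of pharynx, muscle, intestine and neurons had none (Wilson interval 0 to 20.4%). Both lists were chosen with earlier results of these data known, so their counts are descriptions and were not tested against the members. The seam list includes GATA factors. Its windows were also longer, with a median of 15472 bp against 13157 bp for the members and 12027 bp over all genes. The highest signal was at elt-1, a GATA factor that specifies the epidermis (105, with 58.9 in replicate 1 and 48.9 in replicate 2). Of the Hox genes in the list, ceh-13 (76.2) and lin-39 (29.4) had peaks, and mab-5 and nob-1 had none. Wnt pathway genes with peaks were pop-1 (40.1), the TCF factor, lit-1 (25.1), a Nemo-like kinase, and the β-catenin genes sys-1 (93.7) and wrm-1 (49.0), but for these β-catenin genes the nearest 5′ ends belonged to eif-3.C and arf-1. The other Wnt pathway genes of the list, bar-1, apr-1, lin-17, mom-2 and cwn-1, had none. Both cell cycle genes had peaks, cki-1 (58.5), a cyclin-dependent kinase inhibitor gene, and cye-1 (38.3), cyclin E. The nuclear receptor genes nhr-25 (56.7) and nhr-23 (49.6), which act in the epidermis and in molting, had peaks, while nhr-67, like nhr-73 and nhr-74, had none. The GATA factor genes egl-18 (65.2) and elt-3 (41.2), the MTA-like gene egl-27 (71.8) and the zinc finger gene blmp-1 (41.0) had peaks as well. ajm-1 (64.6), for an apical junction protein, fos-1 (49.4), for an AP-1 factor, and the hedgehog-related grd-10 (55.3, nearest to grd-13) made up the rest of the 18. The further genes without a peak were elt-6, lin-29, grh-1, eor-1, ref-2, egl-43, dmd-3, lin-32 and wrt-2. At lit-1 the replicates were far apart, with 3.22 in replicate 1 and 18.9 in replicate 2.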

How the data were processed

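ChIP-seq of eGFP-tagged CEH-16 was available for 2 biological replicates, with the replicate numbers taken from the labels. Per the file headers, the authors deposited a relaxed interval list for each replicate, made from its alignments and a control, together with 1 relaxed list for the pooled data and the optimal list that passed IDR. The deposited signal of each interval is a value of the authors' peak caller, and the deposited −log10 q-value was used only to describe intervals. The sources used here name no aligner, caller or IDR threshold. The ce10 copies were not used. Depth is unknown.

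The 10 members and both other gene lists were chosen with earlier results of these data known. Summits were placed by Ensembl release 115 of WBcel235 with Python 3.11.15, NumPy 2.4.6 and SciPy 1.17.1, and drawn with Matplotlib 3.10.9. A gene's window is its body and 5 kb of either end. All positions are 1-based. A 5′ end is that of an annotated transcript, which in worms is often a trans-splice site. A replicate value is the highest signal among that replicate's intervals overlapping by at least 1 bp. Motifs were searched on both strands within 100 bp of the summit, and a 31-base sequence was unique if it or its complement occurred once in the RefSeq genome. All members, with every interval in their windows, are named genes, with those of the other lists that had an optimal IDR summit. Counting, gap and motif code was tested on simulated data. No comparison between groups exists, so no test was run.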

Additional observations from a re-analysis of the deposited data

How the results depend on the processing

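Which members had an optimal IDR summit depended on the window. The count was 1 within 1 kb and within 2 kb (tlp-1), 4 within 10 kb (with eff-1 and lin-26), and 1 where the gene had to own the nearest protein-coding 5′ end (tlp-1), and it stayed at 2 with the 5′ end alone, interval overlap or signals at or above the list's median. Pooled intervals at or above the lowest optimal IDR signal, an alternative chosen after seeing the data, gave 4. The strongest 1358 pooled intervals gave 3 (with ceh-16). Using 1 replicate's strongest 1358 intervals gave 3 either way, with ceh-16 added from replicate 2 and lin-26 from replicate 1. The share of all genes moved with the settings, to 6.44, 8.63 and 22.6% within 1, 2 and 10 kb, 11.9% with the 5′ end alone, 5.32% by nearest 5′ end, 7.62% with signals at or above the median, 16.7% with strong pooled intervals, and 14.2 to 15.2% with 1 replicate. Summits in the member windows numbered 1 within 1 kb, 6 within 10 kb, 1 by nearest 5′ end, 5 with strong pooled intervals and 4 to 5 with 1 replicate. The count of other seam, epidermal and fusion genes, 18 in the main setting, was 13, 14 and 24 within 1, 2 and 10 kb. It was 16 with the 5′ end alone, 16 by nearest 5′ end and 19 to 21 with 1 replicate. The count of other-tissue genes was 1 within 10 kb and 1 with strong pooled intervals. Core windows were 2 with ATTA. The ceh-16 stretch was 163.6 kb in the optimal IDR list, 30.2 kb between summits, and 30.1 to 31.2 kb with 1 replicate. Of the highest signals per gene and list, 14 of 24 stayed the same within 1 kb, 18 of 25 within 2 kb and 22 of 30 within 10 kb. The smaller totals leave out values whose narrower window held no interval. At 1 and 2 kb these included every value of ceh-16 and the optimal IDR value of lin-22. No paired analysis was possible because there is 1 group. Limits are the unknown depth, the whole larva, the ceh-16 sequence that the transgene adds and repeated sequence at nhr-73.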

Other observations

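Within 10 kb, 4 of the 10 genes had an optimal IDR summit, against 22.6% of all genes. Each of the peaks beyond the 5 kb limit was nearest to the 5′ end of another gene. The strongest lay 5347 bp past the 3′ end of tlp-1, at IV:13695791-13695959, in a UTR of T23G4.127, with a signal of 96.6 (rank 29), 57.4 in replicate 1 and 44.4 in replicate 2. Together with those described for tlp-1, it makes 3 optimal IDR peaks between 137 and 8221 bp of the gene's 5′ end. The peak 7680 bp upstream of eff-1, at II:8338856-8339151, was intergenic, with a signal of 31.8 (rank 763), 16.9 in replicate 1 and 14.8 in replicate 2. Its nearest protein-coding 5′ end was that of C26D10.7, at 5061 bp. The peak 5446 bp upstream of lin-26, at II:7676604-7676899, had 9.23 in replicate 1 and 10.9 in replicate 2.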
